A study of Mus musculus with 165 samples.

Results

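The genes described here are the histone genes whose symbols follow the names of the replication-dependent clusters. They are the rows of both count tables with a symbol that begins with Hist1h, Hist2h, Hist3h or Hist4h, or that carries a newer symbol of the same families. There were 71 such genes among the 55471 rows of each table. By class they were 7 linker histone H1 genes, 20 H2A, 19 H2B, 12 H3 and 13 H4 genes, and 3 of the 71 were annotated as pseudogenes. In mouse build GRCm38 56 of them lie on chromosome 13, 10 on chromosome 3, 3 on chromosome 11, and 1 each on chromosomes 6 and 15. Members were chosen by symbol alone, but the family was proposed with earlier results of these data known, among them the lower level of Hist1h4i in brain at 28 than at 24 months, which is given below as a description. H1f0 fits the naming rule although it is known as a linker histone made outside S phase from a polyadenylated transcript, so its values are kept apart from the sums over the family.

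The series held bulk RNA sequencing of brain and liver from male C57BL/6J/Ukj mice, an inbred laboratory strain, aged 3, 9, 15, 24 and 28 months. All mice were kept for ageing only, and the labels give no genetic modification and no treatment for any group, so age and tissue are the only contrasts and the values speak for males of this strain alone. Brain was represented by 15, 16, 16, 17 and 18 libraries in order of age and liver by 16, 16, 16, 17 and 18, each from a separate mouse, with 82 of the 83 mice giving both tissues. At 3 months, mouse 6 enters with its liver alone, and its brain is not analysed here. The questions addressed are how the level of polyadenylated histone transcripts differs with age in each tissue, and whether the tissues differ in this.

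Replication-dependent histone genes supply the histones that package newly copied DNA, and in dividing cells they are transcribed in S phase. Their messenger RNAs normally end in a conserved stem-loop bound by the protein SLBP instead of a poly(A) tail, so enrichment for polyadenylated RNA captures only a minor form of them. Non-dividing and differentiated cells are known to make polyadenylated transcripts from some of these genes, by using a signal downstream of the stem-loop. Brain and adult liver consist mostly of non-dividing cells, in which the linker histones H1 bind between nucleosomes and the core histones H2A, H2B, H3 and H4 form them.

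The stem-loop is shown because the position of the annotated transcript end relative to it went with which members passed the filter on low counts, as given further on. A search of annotated transcripts for a 16-base pattern (GGNNCTT, any base, T, any base, AGNNCC) on the transcribed strand found it in 46 of the 71 genes, in 8 distinct sequences, of which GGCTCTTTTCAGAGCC was the most frequent and stood in 26 genes. It was present in 67.6% of the 68 members with a protein-coding transcript and in 0.412% of 21833 other protein-coding genes. The sites below are on the strand of the gene with the pattern in capitals and 5 and 7 bases of flank, for linker and core histones that the results turn on.
Hist1h1c: caaaaGGCTCTTTTCAGAGCCaccactc
Hist1h1e: ccaaaGGCTCTTTTCAGAGCCacccaca
Hist1h2bg: ccaaaGGCTCTTTTCAGAGCCacccata
Hist1h2be: ccaaaGGCTCTTTTCAGAGCCacccaac
Hist1h3d: ccaaaGGCTCTTTTCAGAGCCacccccg
Hist1h4i: ttaaaGGCCCTTTTTAGGGCCaccacaa
Hist2h4: ctaacGGCCCTTTTTAGGGCCaaccaca
The linker histone, H2B and H3 genes among these share the core sequence, and the 2 H4 genes share another. Hist1h2bc, Hist2h2be, Hist1h4k and H1f0 held no match in their annotated transcripts. The transcript of Hist1h4k is annotated with 312 bases, against 727 for Hist1h4i. A missing match can thus come from a short annotation and does not show that a gene lacks the stem-loop. Among the genes with a match, 23 had at least 100 annotated bases after it and 23 had fewer. The poly(A) signal AATAAA stood in the last 50 annotated bases of 11 of the former and of 1 of the latter.

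Promoters of the linker histone genes are shown because each of these 4 genes stood apart in the livers of 4 mice described below. The 160 bases before the RefSeq start site (GRCm38.p6) are given 5′ to 3′ on the strand of the gene, with capitals marking the motif AAACACA, the motif CCAAT and the motif TATAAA or their reverse complements. That of Hist1h1c lies at chr13:23738647-23738806 on the plus strand, Hist1h1d at chr13:23554872-23555031 on the plus strand, Hist1h1e at chr13:23622559-23622718 on the minus strand and H1f0 at chr15:79028052-79028211 on the plus strand.
Hist1h1c: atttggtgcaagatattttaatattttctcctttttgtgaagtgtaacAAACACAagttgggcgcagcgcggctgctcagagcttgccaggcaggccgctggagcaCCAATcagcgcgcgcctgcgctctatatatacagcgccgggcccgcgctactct
Hist1h1d: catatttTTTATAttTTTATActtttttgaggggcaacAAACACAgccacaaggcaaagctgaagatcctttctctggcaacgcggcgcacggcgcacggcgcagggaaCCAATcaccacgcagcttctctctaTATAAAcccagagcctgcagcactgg
Hist1h1e: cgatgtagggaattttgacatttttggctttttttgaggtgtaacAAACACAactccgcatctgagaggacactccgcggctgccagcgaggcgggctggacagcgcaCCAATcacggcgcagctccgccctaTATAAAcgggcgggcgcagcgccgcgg
H1f0: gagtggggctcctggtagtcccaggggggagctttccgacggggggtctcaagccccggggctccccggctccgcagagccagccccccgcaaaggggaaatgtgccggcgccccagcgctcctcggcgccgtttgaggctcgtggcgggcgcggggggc
AAACACA stood 112, 122 and 115 bases before the start in Hist1h1c, Hist1h1d and Hist1h1e and CCAAT 54, 51 and 52 bases before it, while H1f0 held neither in this window. In a longer stretch before the RefSeq start sites, searched on both strands, AAACACA was found in 5 of 7 H1 promoters and in 6.25% of all 32817 promoters. CCAAT was found in all 18 H2A and all 16 H2B promoters that could be matched, against 33.8% of all. ATTTGCAT was found in 7 of the 18 H2A and 6 of the 16 H2B promoters, against 1.6% of all, and GGTCC in 11 of 12 H4 promoters, against 39.8% of all. A match is a description of the sequence and not a binding site.

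Total counts, rounded, ran from 11460600 to 73390200 per brain library (median 37575000) and from 5823040 to 57490200 per liver library (median 32855600). Tissue labels fitted their markers: the neuronal gene Snap25 had a median of 2293 CPM (the count scaled to the adjusted total of its library) in brain and 0 in liver, and the hepatocyte gene Alb a median of 67317 CPM in liver and 0.0294 in brain. At 28 months, 1 brain library (replicate 15, the shallowest brain library) had the lowest Snap25 level of all brains, 966 CPM. Another brain library, replicate 13 at 24 months, had the highest summed level of histone members of all brains, 162 CPM, followed by that replicate 15 at 147 CPM. Variant histones summed to 914 and 1115 CPM in these libraries and to at most 599 CPM in any other brain. Marker genes of both brain and liver summed to 6769 and 3962 CPM in replicates 13 and 15, the lowest of all brains. Their sum is not a level of brain markers alone. Snap25 was at 2512 CPM in replicate 13, the highest of its age. Among livers, replicate 14 at 28 months had the lowest Alb level of all livers, 14018 CPM, and the highest Snap25 level, 40.4 CPM. No pair of libraries agreed within counting noise.

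At 3 months, 4 mice stood apart in both tissues, and they bear on every comparison with that age. In liver, Hist1h1c, a somatic linker histone, was at 339, 539, 342 and 426 CPM in mice 10, 13, 15 and 16 and between 23.2 and 59.2 CPM in the other 12. Hist1h1e, another somatic H1, was at 3.46, 7.85, 3.73 and 9.00 CPM in these livers and between 0 and 0.70 CPM in the others. Hist1h1d, another of them, was at 9.23, 47.8, 11.5 and 19.5 CPM in them and at most 0.480 CPM elsewhere at 3 months. Among core histones, Hist1h2be, an H2B gene, was at 3.46, 12.5, 4.47 and 10.7 CPM in the livers of the same mice against 0.0639 to 0.839 CPM, and Hist1h4i, an H4 gene, at 4.41, 8.07, 3.95 and 5.41 CPM against 0.927 to 1.71 CPM. The replication-independent H1f0 stood apart too, at 309, 307, 239 and 307 CPM against 95.0 to 163 CPM. In each of these 6 genes the 4 livers lay above every other liver of that age.

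The brains of the same mice stood apart less and in fewer genes. Hist1h1c was at 30.4, 27.4, 37.0 and 35.9 CPM in them and between 12.2 and 20.6 CPM in the other 11 brains, and Hist1h1e at 2.52, 2.21, 1.83 and 4.44 CPM against 0.698 to 1.24 CPM. H1f0 was at 119, 114, 121 and 125 CPM against 89.3 to 102 CPM. Hist1h3d and Hist2h2aa2 were not above the other brains in any of the 4 mice.

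These 4 mice came from all 3 library preparations (mice 10 and 16 from prep 3, mouse 13 from prep 2 and mouse 15 from prep 1), and their livers held about 31430000 to 45120000 counts. In these livers the division marker Mki67 was at 0.692, 0.355, 0.616 and 0.547 CPM, below all other 3-month livers (1.92 to 21.1 CPM). Summed over the list of S phase and division genes their level was 75.9 to 85.3 CPM, against 97.0 to 315 CPM in the others. The summed level of RNAs that normally lack a poly(A) tail was 1.40 to 2.85 CPM in them and 0.990 to 2.04 CPM in the others, and that of clock genes 245 to 318 and 247 to 709 CPM. Variant histones summed to 604 to 739 CPM in them and 404 to 491 CPM in the others, and red cell genes to 154 to 176 and 187 to 295 CPM. Macrophage genes summed to 334 to 372 and 366 to 1187 CPM, and lymphocyte genes to 10.7 to 13.7 and 13.2 to 53.1 CPM. The part of any of these in the histone levels was not tested. The 4 mice were recognised from their histone levels, so they are not compared as a group with the rest, and fits of changes from 3 months were repeated without them.

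**Figure D1:**
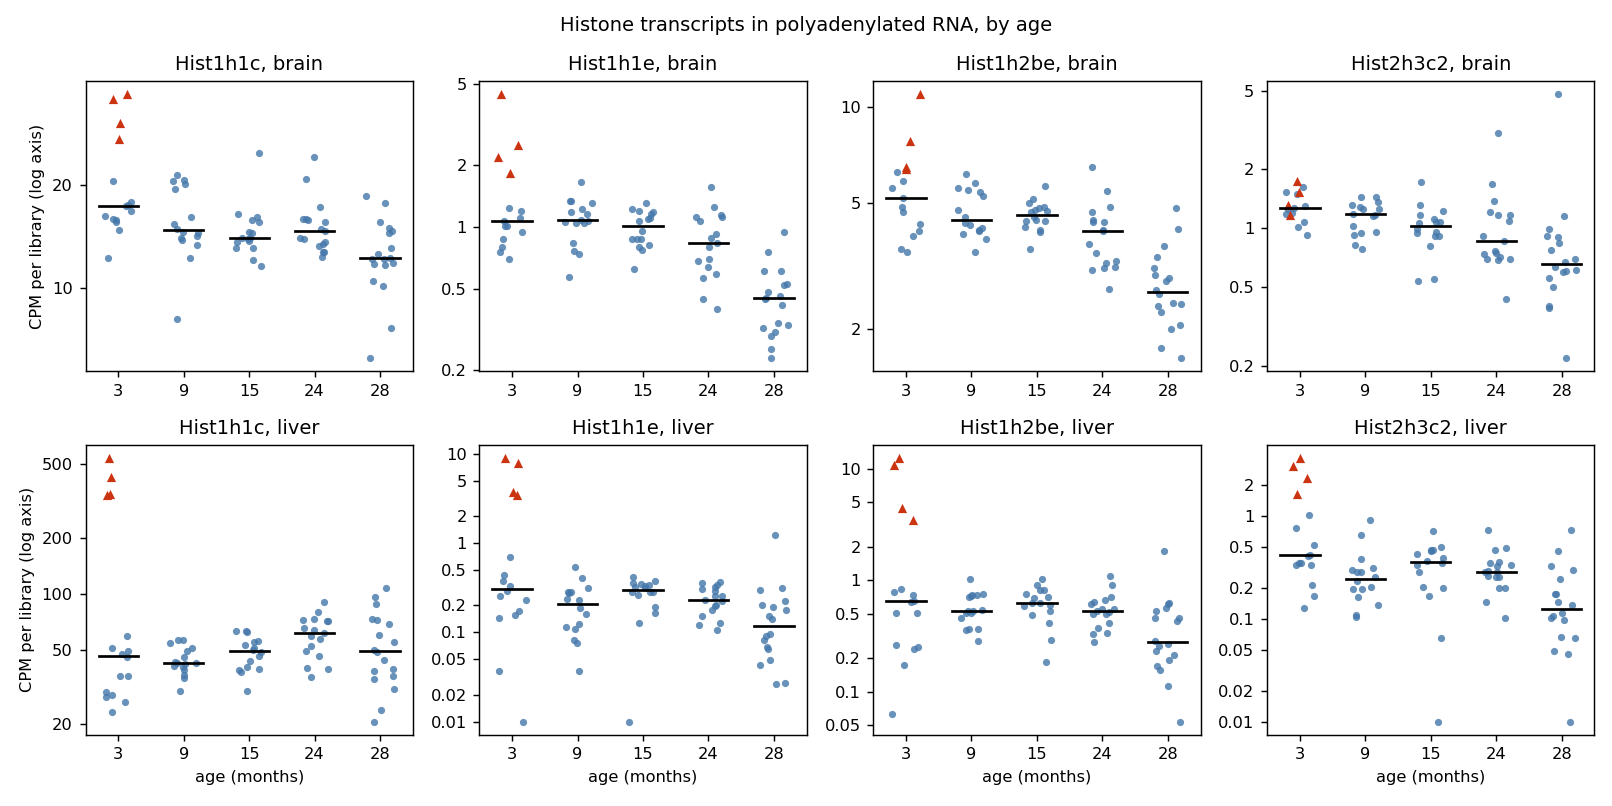
Level of histone genes in each library on a log axis in CPM, by age in months, in brain and liver; each point is 1 library, red triangles are the 4 mice of 3 months that stand apart, and black bars are medians. A library without counts is drawn at 0.01 CPM. In liver the red triangles lie far above all other points for Hist1h1c and Hist1h1e.

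A filter on low counts left 19 of the 71 genes to be tested in brain (at least 10 counts at the median depth, that is 0.266 CPM, in at least 14 libraries) and 12 in liver (0.304 CPM in at least 15 libraries), all 12 of them also among the 19. The other 52 passed in neither tissue, and 4 had no count in any brain library and 4 none in any liver library. Of the genes with a stem-loop match, 13 of 23 with at least 100 annotated bases after it passed in brain, but 2 of 23 with fewer. Of the 25 without a match in their annotated transcripts, some of which are short, 4 passed. In liver these numbers were 8, 1 and 3. Of the 19 genes tested in brain, 18 also passed without the 3-month libraries, the exception being Hist1h4c. In liver 10 of 12 did so, the exceptions being Hist1h2bg and Hist1h2ac. Hist1h4c reached 0.266 CPM in 2, 2, 3, 7 and 1 brain libraries in order of age. In liver Hist1h2bg reached 0.304 CPM in 5, 1, 2, 3 and 5 libraries and Hist1h2ac in 5, 2, 4, 5 and 3.

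Per kilobase of annotated exon, the highest median levels in 3-month brain were those of H1f0 (49.2 CPM per kb), of the H2B genes Hist3h2ba (22.1) and Hist1h2bc (16.9), of Hist1h1c (11.1) and of the H2A gene Hist3h2a (8.12). All other members tested in brain were at 4.04 CPM per kb or less. In 3-month liver, Hist1h2bc (68.6 CPM per kb), H1f0 (66.2) and Hist1h1c (29.9) stood above the remaining members, which were at 1.95 or less.

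In brain, polyadenylated histone transcripts of all 5 classes were lower at 28 than at 3 months, and none was called higher. Of 19 members tested, 13 were called lower (edgeR quasi-likelihood test, adjusted p under 0.05), against 12.0% of all 18711 genes called lower and 16.3% called higher. Leaving Hist1h4i aside, since its low level at 28 months was known when the family was proposed, these were 12 of 18, with 10 of 18 in the fit without the 4 mice. By class the 13 of 19, with Hist1h4i among the H4 genes, were 2 of 3 H1, 2 of 3 H2A, 3 of 5 H2B, 2 of 2 H3 and 4 of 6 H4 genes. The median log2 change was -0.70 over the members and 0.01 over all genes. Without the 4 mice, 11 of 19 were called lower, against 7.70% of all genes lower and 12.3% higher, and the medians were -0.43 and 0.01. Without the brain libraries that stood apart, replicate 13 at 24 and replicate 15 at 28 months, 15 of 19 were called lower, against 16.6% of all genes lower and 17.5% higher. In bulk tissue, fewer cells of a type and less RNA per cell cannot be told apart.

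Hist1h3d (chr13:23575763-23577011, plus strand), a gene for the core histone H3, had the largest change. At 3 months the lowest, median and highest brain levels were 0.181, 0.473 and 0.841 CPM, at 28 months 0, 0.0800 and 0.239 CPM, and 13 of the 15 young libraries lay above the highest old library. The log2 change was -2.46 ± 0.25 (SE; adjusted p 1.98e-12), and -2.21 ± 0.27 without the 4 mice. It was also called lower at 24 months (-1.81 ± 0.24, and -1.55 ± 0.26 without the 4 mice). At 15 months its change of -0.90 ± 0.22 was called with all mice, while -0.66 ± 0.24 without the 4 was not (adjusted p 0.371). At 28 months 11 of 18 libraries held 3 counts or fewer, so its level there is near the floor.

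Among the H1 genes, Hist1h1e (chr13:23620629-23622558, minus strand) ranged from 0.698 over a median of 1.06 to 4.44 CPM at 3 months and from 0.230 over 0.449 to 0.942 CPM at 28 months. All 18 old brains were below the median of the young, and 11 of 15 young brains above the highest old one. The log2 change was -1.64 ± 0.19 (adjusted p 2.26e-10), reduced to -1.04 ± 0.16 without the 4 mice. Hist1h1c (chr13:23738808-23740367, plus strand) went from 12.2, 17.4 and 37.0 CPM (lowest, median and highest) at 3 months to 6.25, 12.2 and 18.7 CPM at 28 months. Its groups overlapped over much of their range, and its change of -0.71 ± 0.12 (adjusted p 4.87e-06) was -0.36 ± 0.11 without the 4 mice. H1f0, the replication-independent H1, had medians of 101 and 102 CPM and a log2 difference of -0.03 ± 0.04 (adjusted p 0.577).

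Among the H2B genes, Hist1h2bg separated the ages best: 14 of 15 young brains, with a median of 0.584 CPM (0.374 to 0.973), lay above the highest of the old, whose median was 0.223 CPM (0 to 0.398). Its log2 change was -1.38 ± 0.18 (adjusted p 7.92e-09), and -1.15 ± 0.20 without the 4 mice. Hist1h2be was at 3.50, 5.16 and 11.0 CPM at 3 months and 1.62, 2.61 and 4.82 CPM at 28 months, a log2 change of -1.0 ± 0.12 (adjusted p 2.62e-10), or -0.75 ± 0.11 without the 4 mice. Exons of Hist1h2be and Hist1h1e overlap on the same strand, so their counts are not independent and may be split between them. Hist1h2bc was called lower with a small change (-0.29 ± 0.10, adjusted p 0.0169) that was not called without the 4 mice (-0.21 ± 0.10). Hist2h2be, at medians of 10.6 and 10.2 CPM, and Hist3h2ba, at 13.5 and 12.4 CPM, were not called, with log2 differences of -0.11 ± 0.06 and -0.02 ± 0.12. Replicate 15 at 28 months set the level of Hist3h2ba apart, at 39.7 CPM with the next old library at 15.3 CPM. The difference was -0.18 ± 0.09 without that library, not called (adjusted p 0.138), and -0.18 ± 0.08 without it and replicate 13 at 24 months, called lower, its adjusted p barely below 0.05.

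The H2A genes Hist3h2a and Hist2h2aa2 were called lower. Hist3h2a had medians of 17.4 and 11.1 CPM at 3 and 28 months, and 14 of 18 old libraries lay below the lowest young one (13.4 CPM), while replicate 15 at 28 months was the highest library of both ages at 27.6 CPM. The change was -0.51 ± 0.10 (adjusted p 2.1e-05), -0.61 without that library and -0.43 ± 0.11 without the 4 mice. Its exons overlap those of Trim17 on the same strand. Hist2h2aa2 changed by -0.88 ± 0.21 (adjusted p 0.00115), or -0.73 ± 0.24 without the 4 mice, from a median of only 0.289 CPM, and the H2A gene Hist1h2ac was not called (-0.20 ± 0.12).

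Of the H4 genes, Hist1h4i (chr13:22040636-22041362, minus strand) ranged from 0.920 over 1.43 to 2.27 CPM at 3 months and from 0.437 over 0.703 to 2.18 CPM at 28 months. The highest old library was replicate 15, the next stood at 1.18 CPM, and 14 of 18 were below all the young. The log2 change was -1.01 ± 0.15, and -0.90 ± 0.16 without the 4 mice, given as a description because its low level in these 28-month libraries was known when the family was proposed. Hist1h4k changed by -1.23 ± 0.20 (adjusted p 1.63e-06; -1.07 ± 0.22 without the 4 mice), Hist2h4 by -0.83 ± 0.15 (adjusted p 1.21e-05; -0.71 ± 0.16 without them) and Hist1h4j by -0.67 ± 0.24 (adjusted p 0.0281). Hist1h4j was not called without the 4 mice (-0.35 ± 0.27), and Hist1h4c and Hist1h4h were not called in either fit. The remaining H3 gene, Hist2h3c2, went from a median of 1.27 to 0.656 CPM, and its change of -0.70 ± 0.20 was -0.63 ± 0.22 without the 4 mice and -0.95 without replicate 15, where it was at 4.82 CPM.

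**Figure D2:**
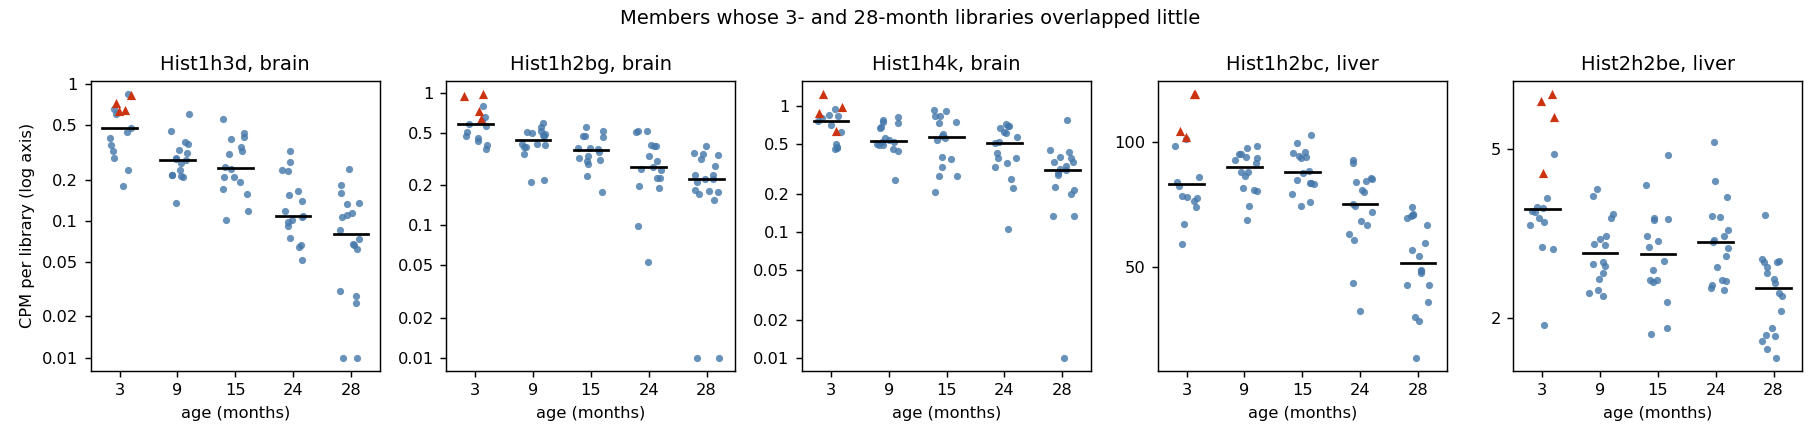
Level in CPM on a log axis in each library, by age in months, of members whose levels at 3 and 28 months overlapped least; points, red triangles and bars as above, with libraries without counts drawn at 0.01 CPM. In brain the medians of Hist1h3d and Hist1h2bg are lower at 24 and 28 than at 3 months, and in liver Hist1h2bc is lower at 24 and 28 months.

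Over the intermediate ages, brain counts of members called lower against 3 months were 0 of 19 at 9 months (0.128% of all genes), 3 at 15 months (0.347%) and 9 at 24 months (3.86%). The count at 24 months was 8 without replicate 13 of that age (3.16% of all genes lower) and 10 without it and replicate 15 at 28 months (7.68%). With all libraries and Hist1h4i left aside it was 8 of 18. In replicate 13 Hist1h4i was at 3.02 CPM with the next library of 24 months at 1.60 CPM, and Hist3h2a at 29.5 CPM with the next at 17.5 CPM. None was called higher at these ages, against 0.187%, 0.524% and 6.19% of all genes. Of the 19 members, 10 were called when the 4 age terms were tested together (20.6% of all genes). The 3 called at 15 months were Hist1h1c, Hist1h2bg and Hist1h3d. Without the 4 mice the counts were 0, 0 and 2, against 0.0583%, 0.249% and 1.47% of all genes called lower in that fit, the latter being Hist1h2bg (-0.77 ± 0.19) and Hist1h3d (-1.55 ± 0.26). The count of 0 at 9 months comes from edgeR; 1399 of all genes had an unadjusted p under 0.05 there, and DESeq2 also called 0 members.

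Comparisons between later ages, in the same fit, were added after the data were seen. From 9 to 28 months, 8 of 19 members were called lower in brain (6.14% of all genes), and from 15 to 28 months 9 of 19 (5.73%), and none higher (10.9% and 9.40%). Leaving Hist1h4i aside these were 7 and 8 of 18. Hist1h3d changed by -1.67 ± 0.27 and -1.56 ± 0.27 over these steps, Hist1h1e by -1.20 ± 0.19 and -1.08 ± 0.20, Hist1h2be by -0.76 ± 0.12 and -0.71 ± 0.12, and Hist1h4i by -0.77 ± 0.15 and -0.67 ± 0.15. Hist1h1c, at medians of 14.8, 14.0 and 12.2 CPM at 9, 15 and 28 months, was not called in either. No 3-month level enters these differences, although the spread is still estimated from all brain libraries.

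Between neighbouring late ages, 0 of 19 members were called from 15 to 24 months (0.732% of all genes in either direction; 1631 genes had an unadjusted p under 0.05, and DESeq2 called 1 member). From 24 to 28 months 0.561% of all genes were called lower and 0.529% higher. Among the members 3 were called lower and 0 higher, but 1 of the 3, Hist1h4i, was known to be lower over this step when the family was proposed, so nothing is read from the count. Of the others, Hist1h1e went from a median of 0.838 to 0.449 CPM (-0.88 ± 0.19, adjusted p 0.00947) and Hist1h2be from 4.08 to 2.61 CPM (-0.53 ± 0.12, adjusted p 0.00947). Hist1h4i had medians of 0.974 and 0.703 CPM. Over this step 6 members, Hist1h4i among them, were called lower without replicate 15 at 28 months (1.46% of all genes lower and 1.34% higher in that fit), 4 without replicate 13 at 24 months (1.06% lower) and 6 without both (1.81% lower).

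**Figure D3:**
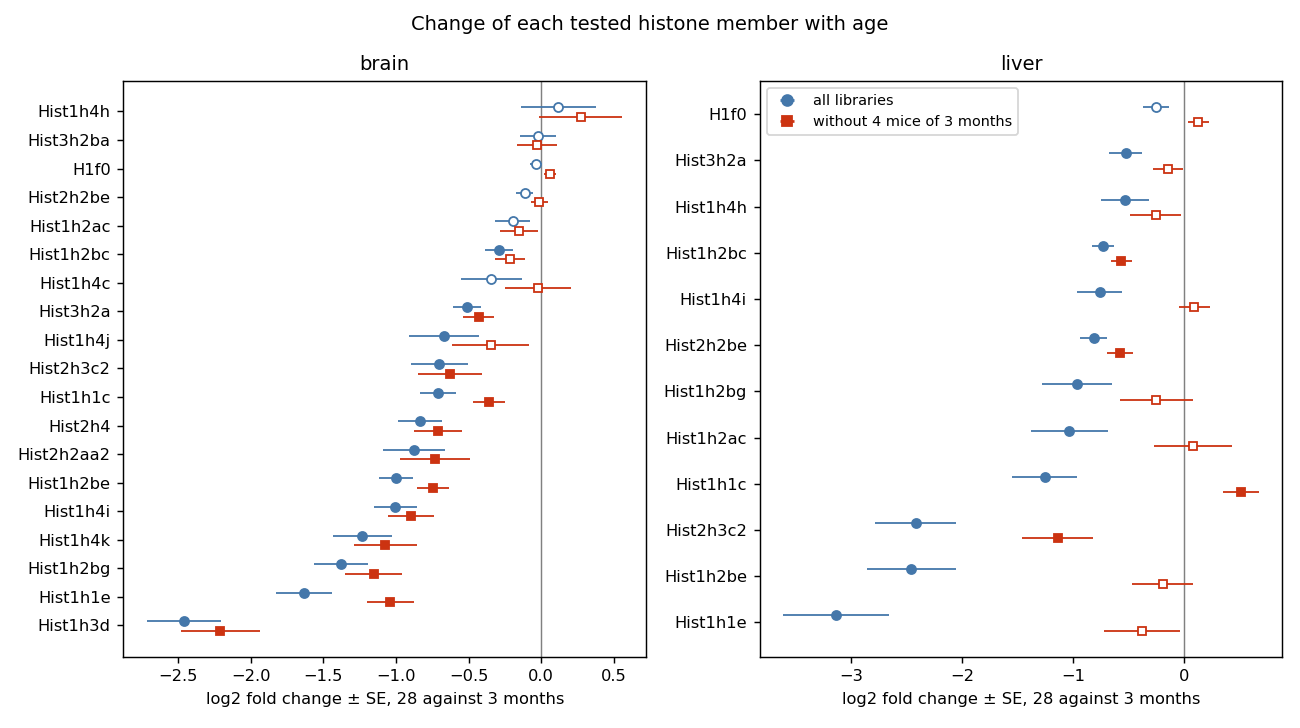
Log2 change from 3 to 28 months with its standard error for each tested member, in brain and liver; blue circles use all libraries, red squares leave out the 4 mice of 3 months, and filled symbols are called at an adjusted p under 0.05. In brain both sets lie left of 0 for most members, while in liver the red squares of Hist1h1c, Hist1h1e and Hist1h2be lie far from the blue circles.

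In liver, 11 of 12 members were called lower at 28 than at 3 months and 0 higher, against 30.0% of all 15579 genes lower and 31.9% higher, but most of these calls rested on the 4 mice. Without them 3 were called lower and 1 higher, against 27.3% and 29.8% of all genes. The 3 were the H2B genes Hist1h2bc and Hist2h2be and the H3 gene Hist2h3c2, and the gene called higher was Hist1h1c. The median log2 change over the members was -0.89 with all libraries and -0.22 without the 4 mice, against 0.01 and 0.02 over all genes.

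Hist1h2bc (chr13:23684199-23692908, plus strand), the core histone gene with the highest level per kilobase in liver, had the steadiest change. The lowest, median and highest levels were 56.9, 79.3 and 130.5 CPM at 3 months and 30.2, 51.1 and 69.6 CPM at 28 months, and 14 of 16 young livers lay above every old one. The log2 change was -0.73 ± 0.10 (adjusted p 1.36e-09), and -0.56 ± 0.10 without the 4 mice (adjusted p 1.22e-06). It was also called lower from 15 to 24 months (-0.29 ± 0.10, adjusted p 0.018) and from 24 to 28 months (-0.42 ± 0.10, adjusted p 0.0011), where no 3-month library enters. At 9 and 15 months its medians, 86.9 and 84.6 CPM, did not differ from 3 months beyond the spread.

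Hist2h2be (chr3:96221119-96223738, plus strand) was at 1.92, 3.60 and 6.72 CPM at 3 months and at 1.61, 2.35 and 3.49 CPM at 28 months, with all 18 old livers below the young median. Its log2 change was -0.81 ± 0.12 (adjusted p 3.33e-08), -0.58 ± 0.12 without the 4 mice, and -0.43 ± 0.12 from 24 to 28 months (adjusted p 0.00839). Hist2h3c2 went from 0.128, 0.411 and 3.64 CPM to 0, 0.124 and 0.719 CPM. Its change of -2.41 ± 0.36 (adjusted p 3.33e-08) was -1.14 ± 0.32 without the 4 mice, and the highest old library was replicate 14, the liver with the lowest Alb level.

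The linker histones showed how far the 4 mice set the result. Hist1h1c had nearly equal medians in liver, 46.7 CPM at 3 months and 49.3 CPM at 28 months (23.2 to 539 and 20.6 to 107 CPM). The fitted change was -1.25 ± 0.29 (adjusted p 0.000166) with all mice and 0.51 ± 0.16 without the 4 (adjusted p 0.00546). The 4 livers were recognised by their high Hist1h1c and other histone levels, so leaving them out lowers the 3-month level by choice, and the second value is a description and no independent sign of a rise. From 9 or 15 to 28 months, which none of the 4 mice enters, Hist1h1c was not called. Hist1h1e had medians of 0.309 and 0.119 CPM, with a fitted change of -3.13 ± 0.47 (adjusted p 3.45e-08) that became -0.38 ± 0.34 and was not called (adjusted p 0.346). H1f0 was not called in either fit (-0.25 ± 0.12 and 0.13 ± 0.09).

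The other liver calls were likewise lost without the 4 mice. Hist1h2be changed by -2.46 ± 0.40 with them and by -0.19 ± 0.28, not called, without them, and Hist1h4i by -0.76 ± 0.20 and 0.10 ± 0.14. The log2 values of Hist1h2ac were -1.03 ± 0.35 and 0.09 ± 0.35, those of Hist1h2bg -0.96 ± 0.32 and -0.25 ± 0.33. Hist1h4h had -0.53 ± 0.22 and -0.25 ± 0.23, and Hist3h2a -0.52 ± 0.15 and -0.14 ± 0.14. Replicate 14 at 28 months had the highest old level of Hist1h1e (1.24 CPM) and Hist1h2be (1.81 CPM), and leaving it out kept the count at 11.

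Against 3 months, 6 of 12 liver members were called lower at 9 months (3.16% of all genes), 5 at 15 months (4.26%) and 9 at 24 months (24.0%), and 0 higher at any of them (1.53%, 3.06% and 25.0%). With these mice left out no member was called lower at 9, 15 or 24 months, against 0.102%, 0.388% and 21.2% of all genes. Hist1h4i was then called higher at 15 months (0.65 ± 0.14) and 24 months (0.54 ± 0.14) and Hist1h1c at 24 months (0.66 ± 0.16), against 0.572%, 1.69% and 23.6% of all genes higher at 9, 15 and 24 months. The 4 livers were recognised from high levels of these genes, so these values are a description. From 15 to 24 months 1 member, Hist1h2bc, was called lower (14.4% of all genes), and from 24 to 28 months Hist1h2bc and Hist2h2be (9.13%). None was called higher over these steps, against 21.6% and 6.18% of all genes. With the 4 age terms together 11 of 12 members were called, H1f0 among them and Hist1h4h not (71.5% of all genes).

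From 9 to 28 months, which takes none of the 4 mice, 3 of 12 liver members were called lower (26.1% of all genes): Hist1h2bc (-0.69 ± 0.10), Hist2h2be (-0.34 ± 0.12) and Hist1h4h (-0.51 ± 0.21). From 15 to 28 months 5 were called lower (23.6%), these 3 with Hist2h3c2 (-0.90 ± 0.38) and Hist1h4i (-0.54 ± 0.20). None was called higher (33.3% and 32.0% of all genes), and Hist1h1c had 0.31 ± 0.29 and 0.17 ± 0.29, not called. The share called from 9 to 28 months was thus close to that of all liver genes.

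The change from 3 to 28 months differed between tissues for 6 of the 12 members tested in both (tissue by age term, edgeR), against 49.2% of all 14035 genes, so the count is at the share of genes at large. With all mice, 8 of these 12 were called lower in both tissues, 3 (Hist1h2ac, Hist1h4h and Hist2h2be) in liver only and 0 in brain only, against 5.21%, 25.2% and 7.15% of these 14035 genes. Without the 4 mice this split turned over, to 1 in both tissues (Hist2h3c2), 2 in liver only (Hist1h2bc and Hist2h2be) and 6 in brain only (Hist1h1c, Hist1h1e, Hist1h2be, Hist1h2bg, Hist1h4i and Hist3h2a), against 2.89%, 24.6% and 4.90% of 14167 genes. Brain minus liver, the difference in log2 change was 0.67 ± 0.13 for Hist2h2be (adjusted p 1.2e-05) and 0.40 ± 0.14 for Hist1h2bc (adjusted p 0.0106). When the 4 mice were left out, 4 members were called, against 42.2% of all genes: Hist2h2be at 0.52, and Hist1h1c, Hist1h4i and Hist1h2bg at -0.92, -1.04 and -0.95. The difference thus kept its direction and call without the 4 mice for Hist2h2be, which was lower with age in liver and not called in brain. The 4 mice were recognised from high histone levels, most of all in liver. Leaving them out lowers the 3-month liver levels by choice, so the split and the differences without them are a description.

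At 3 months, 8 of the 12 members differed in level between the tissues, against 88.6% of all genes (45.9% higher and 42.6% lower in brain). Hist3h2a (2.84 ± 0.15), Hist1h2ac (1.22 ± 0.29), Hist1h2be (0.85 ± 0.34) and Hist2h2be (0.75 ± 0.12) were higher in brain on the log2 scale. Hist1h1c (-3.24 ± 0.29), Hist1h2bc (-2.71 ± 0.12), H1f0 (-1.34 ± 0.11) and Hist1h4i (-1.28 ± 0.21) were lower in brain. Leaving out the 4 mice, 11 of 12 differed, 7 higher and 4 lower in brain, against 45.8% and 41.6% of all genes. Hist1h2be then stood at 2.74 ± 0.25, Hist1h2ac at 2.20 ± 0.30, Hist1h1c at -1.90 ± 0.18 and Hist1h4i at -0.60 ± 0.18, and the others of the 8 named kept their direction and call. Hist1h1e (1.42 ± 0.31), Hist2h3c2 (0.78 ± 0.32) and Hist1h2bg (0.70 ± 0.33) were called higher in brain in this fit and not with all mice. Leaving out mice recognised from high histone levels lowers the 3-month liver levels by choice, so the values without them are a description. Scaling between tissues is uncertain.

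Brain and liver of the same mouse could be compared after the effects of age and prep were removed from log2 CPM, over the 67 mice of 9 to 28 months. For Hist1h2be Pearson's r was 0.565 (Spearman's rho 0.604). The permutation p was 1e-05, the smallest that the permutations could give, and 0.00286 after adjustment over 14035 genes. Without the 2 mice farthest from the median r was 0.543, and within preps 1, 2 and 3 it was 0.754, 0.483 and 0.538. Within ages it was 0.462 at 9, -0.0298 at 15, 0.643 at 24 and 0.740 at 28 months, so it was near 0 in the 16 mice of 15 months.

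Hist1h2be was among the 0.926% of all genes with an adjusted p under 0.05 in this comparison. The other 11 members were not, with Hist1h2ac next at r 0.283 (rho 0.184, permutation p 0.0259, adjusted 0.372). Hist1h1e, which shares exons with Hist1h2be, had r 0.209 (rho 0.255, permutation p 0.0914, adjusted 0.560). The median r over all genes was -0.00409.

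**Figure D4:**
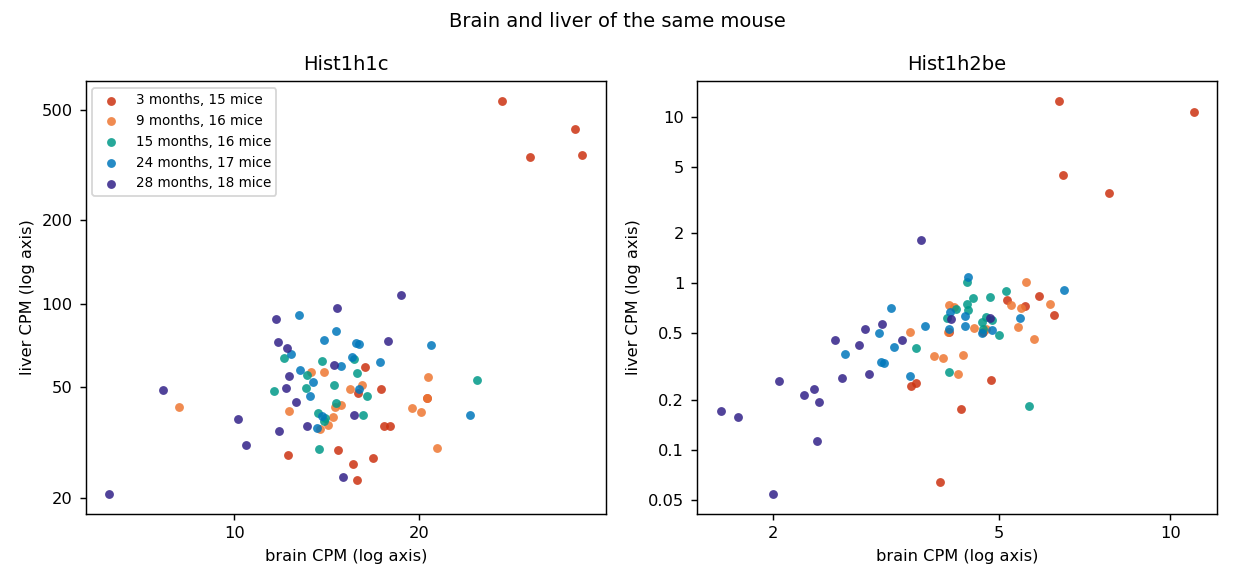
Level in brain against level in liver of the same mouse, in CPM on log axes, for Hist1h1c and Hist1h2be; each point is 1 mouse, coloured by age in months. In both panels 4 mice of 3 months lie at the upper right, above all other livers, and for Hist1h2be the mice of 28 months lie mostly at the lower left.

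From 3 to 28 months 16.3% of all genes were called higher and 12.0% lower in brain and 31.9% and 30.0% in liver, and the counts of the lists below stand beside these shares. Genes that work with the histones were called in both directions, apart from the transcript processing factors in liver. Of 10 variant histones, most of them made outside S phase too, brain called 1 higher and 2 lower from 3 to 28 months. These were H3f3b at 0.20 ± 0.04, the centromeric histone Cenpa at -0.40 ± 0.11 and H3f3a at -0.19 ± 0.07. In liver 1 of 9 was called higher, H2afy2 (0.57 ± 0.13), and 2 lower, H2afx (-0.79 ± 0.15) and H2afy (-0.16 ± 0.04). The H3.3 genes H3f3a and H3f3b, whose product replaces replication-dependent H3 outside S phase, thus had opposite signs in brain. With the 4 mice left out, variant histones were called 1 higher and 1 lower in brain and 2 higher and 2 lower in liver.

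Of 16 factors of histone gene transcription and transcript end formation, brain called 2 higher (Nelfe, a subunit of the negative elongation factor, at 0.32 ± 0.10, and the scaffold Sympk at 0.16 ± 0.06) and 1 lower (the 3′ exonuclease Eri1, at -0.17 ± 0.05). In brain 0 of these were called when the 4 mice were left out. Liver called 0 higher and 7 of 15 lower, among them Cpsf2 (-0.29 ± 0.05), Ncbp1 (-0.37 ± 0.07) and Nelfe (-0.31 ± 0.06). The stem-loop binding protein Slbp itself was not called in brain (0.05 ± 0.09) or liver (0.02 ± 0.07). Of 21 histone chaperones and assembly factors, brain called 4 higher, led by Asf1b (0.76 ± 0.12), and 1 lower, Nasp (-0.23 ± 0.05). Liver called 6 higher, led by the chromatin assembly subunit Chaf1b (1.67 ± 0.18), and 6 lower, led by Rbbp4 (-0.66 ± 0.06), which is near the share of all liver genes in each direction. With the 4 mice left out, chaperones were called 2 higher and 1 lower in brain and 4 higher and 3 lower in liver.

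Most of the S phase and division genes were not called in brain, and most were called higher in liver. In brain 7 of 26 were called lower and 1 higher, with Top2a at -1.66 ± 0.21, Ccnb1 at -1.81 ± 0.25 and Rrm2 at -0.70 ± 0.09, and the median over the list was -0.05. In liver 19 of 28 were called higher and 0 lower, with a median of 0.90, and 13 of 28 higher without the 4 mice. Leaving out replicate 12 at 3 months, whose summed level of 315 CPM was the highest of its age, gave 25 of 28. With all libraries, histone members were thus called lower in the same livers in which division genes were called higher. The 4 mice, whose livers were high in histones and low in division genes, bear on both. Without them 3 of 12 histone members were called lower and 1 higher in liver (27.3% and 29.8% of all genes). From 9 to 28 months 24 of 28 division genes were called higher in liver, against 33.3% of all genes. Over that step 3 of 12 histone members were called lower there, against 26.1%. In brain 3 of 26 division genes were called lower and 1 higher from 9 to 28 months, against 6.14% and 10.9% of all genes.

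**Figure D5:**
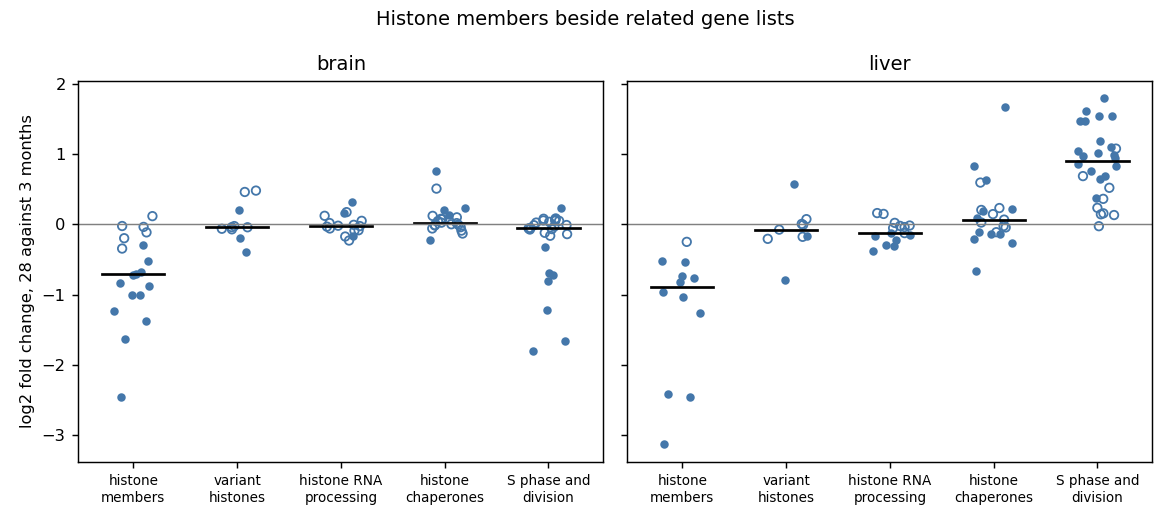
Log2 change from 3 to 28 months of each tested gene in the histone family and in the lists of histone-related and division genes, in brain and liver; each point is 1 gene, filled points are called at an adjusted p under 0.05, and bars are medians. In liver, division genes lie mostly above 0, and the histone family lies mostly below 0 in both tissues.

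Markers of other cell types also moved with age. In brain, 5 of 12 genes of oligodendrocyte precursors and neural precursors were called lower and 0 higher, led by Gpr17 (-1.62 ± 0.10), and their summed level was 528 to 665 CPM at 3 months and 387 to 585 CPM at 28 months. Macrophage and microglia genes were called higher in 7 of 9 in brain (summed level 239 to 302 against 282 to 527 CPM) and in 12 of 13 in liver (334 to 1187 against 514 to 4253 CPM). Lymphocyte genes were called higher in 1 of 6 in brain, at summed levels of 1.86 to 5.64 and 2.53 to 11.3 CPM, and in 14 of 15 in liver (10.7 to 53.1 against 23.7 to 435 CPM). Red cell genes were called higher in 4 of 7 in brain (35.4 to 238 against 38.5 to 733 CPM), and in liver 4 were called higher and 1 lower of 7. The part of these cells in the histone levels was not tested.

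Of RNAs without a poly(A) tail, 5 could be tested in brain and 3 in liver, and the lowest adjusted p from 3 to 28 months was 0.299 (Rnu73b) in brain and 0.198 (Snora73b) in liver. With their mean level as a term in the model, 13 of 19 brain and 11 of 12 liver members were called, as without it, against 12.7% and 29.9% of all genes lower and 16.1% and 32.0% higher in those fits. Clock genes, which vary with the hour of collection, were called in 7 of 14 in brain (6 higher, 1 lower) and in 11 of 14 in liver (7 higher, 4 lower, among them Per3 at 3.57 ± 0.42). With their score as a term, 11 brain members were called (10.4% of all genes lower and 15.8% higher) and 6 liver members (25.6% lower and 26.8% higher).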

How the data were processed

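The authors deposited 1 table of raw counts per tissue, whole numbers of reads per Ensembl gene with 1 column per library, not normalized. Extraction used QIAzol with chloroform, and polyadenylated RNA was then made, per the labels' protocols, into stranded TruSeq libraries in 3 preps, each holding all 5 ages, and sequenced as paired reads of 100 bases. The submitters' processing notes name cutadapt 2.8, HISAT2 2.1.0, SAMtools 1.9, featureCounts, Subread 2.0.1 and the builds GRCm38.p6 and mm10. The annotation, the strand setting and the treatment of reads that match several genes are not given in the sources used here. Histone genes are near-identical, so reads may be split between or lost from them, and exons of 24 members overlap another gene on the opposite strand and of 7 on the same strand. Columns left unused numbered 0.

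A gene name table for mouse gave symbols for 55144 of 55471 rows. Gene coordinates, transcript ends and stem-loops came from a GENCODE annotation of GRCm38 that is not known to be the authors' own, and promoters from RefSeq (63 of 71 members matched). Each tissue was fitted with edgeR 4.0.16 (R 4.3.3): filterByExpr by age, TMM scaling, and a quasi-likelihood fit of all its libraries on age plus prep. The two-sided quasi-likelihood F test was used, with Benjamini-Hochberg adjustment over all genes tested in each comparison, and a call is an adjusted p under 0.05. Standard errors are the absolute log2 change divided by the square root of F. Levels are CPM of the TMM-scaled library, the floor is 3 counts, and floors cover counting error only. Tissues were compared in 1 fit over genes kept in both. Brain and liver residuals of log2 CPM (prior count 2) were related by Pearson's r with 100000 permutations of mice for members and 2000 for all genes. The tests were checked on simulated counts.

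Named members were, per tissue, the 8 highest and 8 lowest called changes from 3 to 28 months, the most abundant member of each class, members called between late ages, up to 6 by the tissue by age test, Hist1h4i and H1f0. In other lists up to 3 genes with the smallest adjusted p were named, and Hist1h1d, Slbp, Mki67, Alb, Snap25 and members named for not being called were added after their values were seen. Members and lists were chosen with earlier results of these data known. Alternatives were RLE scaling, DESeq2 1.42.0, no filter, no prep term, each prep alone, limma voom 3.58.1 with sample weights, only the 2 ages compared, a replicate block, 2 covariates and leaving out libraries. Replicate numbers did not pair libraries across ages, while the same age and number in brain and liver is the same mouse by its label.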

Additional observations from a re-analysis of the deposited data

Results flagged for a closer look

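The change from 3 to 28 months differed between brain and liver, by the tissue by age term of the edgeR fit over all mice, for 6 of 12 members, against 49.2% of all genes, so the count is at the share of genes at large. Brain minus liver, the difference in log2 change was 0.67 for Hist2h2be, 1.68 for Hist2h3c2 (SE 0.40, adjusted p 0.000222), 1.40 for Hist1h2be (SE 0.40, adjusted p 0.00186), 0.40 for Hist1h2bc, 1.43 for Hist1h1e (SE 0.50, adjusted p 0.0119) and 0.81 for Hist1h2ac (SE 0.34, adjusted p 0.0381). Without the 4 mice of 3 months that stand apart these values were 0.52, 0.47, -0.62, 0.30, -0.73 and -0.30 in the same order. Among them Hist2h2be was called (adjusted p 0.000605). These mice were recognised from high histone levels, so the values without them are a description. Brain and liver come from the same mice, and with the mouse as a block in limma voom Hist1h2ac was not called (0.69 ± 0.38, adjusted p 0.126), while the other 5 were. In limma voom without the block Hist1h2be, Hist1h1e and Hist1h2ac were at 0.33 ± 0.38, 0.23 ± 0.50 and 0.49 ± 0.37. None of these was called there, while Hist2h2be, Hist2h3c2 and Hist1h2bc were. Hist1h1e and Hist1h2be share exons, so their values are not independent.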

How the results depend on the processing

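The share of all genes called lower in the same fit is given in brackets. For 28 against 3 months, 13 brain members were called (12.0%), 13 also with RLE factors (11.6%), 13 with DESeq2 (13.3%) and 11 to 13 when any 1 library of either age was left out. Other counts were 25 without the filter (24 lower, 1 higher; 5.30%), 2 and 7 in preps 2 and 3 alone (0.586% and 2.01%), and 8 for 28 against 9 months in its place (6.14%). In liver 11 were called (30.0%), 11 also with RLE or DESeq2 (30.2% and 30.5%) and 9 to 12 with any 1 library left out. Leaving out the 4 mice gave 4, of which 3 were lower (27.3%) and 1 higher (29.8% of all genes higher). There were 28 without the filter (27 lower and 1 higher, 15.5%) and 5 and 1 in preps 1 and 2 alone (18.8% and 7.44%). Limma voom with sample weights gave 3 (29.0%), a fit of the 2 ages only 7 of 9 (27.6%) and the clock covariate 6 (25.6%). For 28 against 9 and 28 against 15 months in its place there were 3 and 5 (26.1% and 23.6%). With replicate number as a block, 12 brain and 10 liver members were called (11.9% and 29.6%), and in liver 2 for 15 against 3 months. Libraries of the same number at different ages had a median correlation of residuals of 0.00955 in brain and 0.00910 in liver. With the mouse as a block, in limma voom because that fit took too long in edgeR, 5 members passed the tissue by age test (not Hist1h2ac), and 3 in limma voom without the block.

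For the brain, 9 against 3 months gave 1 call without the filter (0.0556%). From 3 to 15 months there were 5 without the filter (0.184%), 0 in each prep alone (at most 0.0375%) and 0 without the 4 mice. From 3 to 24 months there were 0, 1 and 1 in preps 1, 2 and 3 alone (0.354%, 0.133% and 0.116%) and 2 without the 4 mice. From 15 to 24 months DESeq2 gave 1 (0.160%), and leaving out replicate 15 at 28 months gave 1. From 24 to 28 months each prep alone gave 0 (at most 0.0268%) and the fit without that library 6. Leaving out replicate 13 at 24 months gave 8, 13, 0 and 4 calls from 3 to 24, 3 to 28, 15 to 24 and 24 to 28 months, and leaving out both libraries 10, 15, 0 and 6. In liver, 9 against 3 months gave 0 in each prep alone (0%) and 0 without the 4 mice. For 15 against 3 months there were 0 in each prep (at most 0.0636%). Without the 4 mice 1 was called there, higher and not lower (1.69% of all genes higher). From 3 to 24 months there were 19 without the filter (11.8%) and 0 and 2 in preps 1 and 2 (2.06% and 5.61%). Without the 4 mice 2 were called over this step, both higher (23.6% of all genes higher). From 15 to 24 months there were 3 without the filter (2 lower and 1 higher, 6.73%) and 0 in each prep (0%, 5.25% and 3.53%). From 24 to 28 months there were 4 without the filter (3.92%) and 0 in preps 2 and 3 (0% and 0.885%). Single preps hold fewer libraries, and without the filter 67 members were tested in each tissue. Leaving out the 4 mice or these brain libraries, the later ages and limma voom without the block were chosen after seeing the data.

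Of single changes from 3 to 28 months, signs turned in brain for Hist2h3c2 in prep 3 alone (0.0012), for Hist2h2be in prep 2 alone (0.0102) and for H1f0 in prep 2 alone (0.0385), with limma voom and sample weights (0.0219) and without the 4 mice (0.0609). In liver they turned for Hist1h1c with limma voom and sample weights (0.14) and, without the 4 mice, for Hist1h1c (0.51), Hist1h2ac (0.0869), Hist1h4i (0.0960) and H1f0 (0.13). Without the 4 mice the tissue differences of Hist1h2be (-0.62), Hist1h1e (-0.73) and Hist1h2ac (-0.30) turned sign. The cause was not tested. Members under about 0.3 CPM rest on a few counts per library.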
